A study of Mus musculus with 14 samples.

Results

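Distal regions lost at 4 to 8 h were those accessible in uninduced ES cells, away from promoters, that dropped out of the peak lists 4 h or 8 h after GATA6 induction and were absent from both lists of 48 h. They were chosen by their calls in the peak lists themselves. Peaks of all 14 libraries on the autosomes were merged where they overlapped by at least 1 bp, which gave 121891 regions, and a region counted as called wherever the list of that library had at least 1 peak in it. A member had its midpoint more than 1 kb from every transcription start site (TSS) of a protein-coding gene, was called in both 0 h libraries and in neither 48 h library, and was first called in neither library of a time point at 4 h or 8 h. This gave 5599 members, 4.59% of all merged regions and 16.6% of the 33663 distal regions called in both 0 h libraries. Of those 33663, 57.2% were called in neither 48 h library, and members made up 29.1% of the 19261 regions so lost. A total of 2577 members (46.0%) had their first empty time point at 4 h and 3022 (54.0%) at 8 h.

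The data were ATAC-seq peak lists, in which a transposase marks open DNA, from KH2 mouse ES cells that carry a TRE:GATA6-DSREd2 transgene, a tetracycline-responsive element that drives GATA6 and a red fluorescent protein. GATA6 is a transcription factor that directs cells of the early embryo to the primitive endoderm (PrE), and the question was how chromatin changes as it does so. There were 2 libraries of 50000 cells at each of 0, 2, 4, 8, 16, 24 and 48 h, and every group was labelled with the strain C57BL/6. The 0 h cells received no doxycycline (Dox) and were in 2i medium, which holds inhibitors of MEK and GSK3 and the cytokine LIF. All other cells were in serum medium with LIF. Cells of 2, 4 and 8 h were in Dox at 1 µg/mL until collection, and cells of 16, 24 and 48 h received Dox for 12 h and then none. The change of medium came with the induction, so the effect of either on any 0 h region cannot be told apart. All groups share the transgene and derive from 1 ES cell line. The study's methods describe a sort of DsRed2-positive cells for ATAC-seq, and the labels do not say whether these libraries came from sorted cells.

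Lists held between 54301 and 63667 autosomal peaks. They hold no read counts, and the read totals that the study gives elsewhere are not used here, so an uncalled region may still be open below the calling threshold of that library. The study states that its replicate experiments were independent, the labels do not say whether the cultures were separate, and p-values measure the spread between these libraries. As a check of the label, both 0 h libraries called a promoter region for 15 of 18 naive pluripotency genes, among them Nanog, Sox2, Pou5f1 and Esrrb but not Klf4, Prdm14 and Dppa3. Both 48 h libraries still called one for 13 of the 18, without Nanog and Fgf4, so the count sets 0 h little apart from 48 h.

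ES cells in 2i are held in the naive pluripotent state of the epiblast (Epi) before implantation. There, distal enhancers carry dense clusters of bound factors, among them OCT4 and SOX2 on adjoining octamer and SOX sites, the nuclear receptor ESRRB and Krüppel-like factors. Enhancers are opened and kept open by bound factors and remodelling enzymes, and commonly lose accessibility when those factors leave. LIF acts through its receptor and STAT3, inhibition of GSK3 lets β-catenin act on TCF/LEF factors, and ERK signalling, which the MEK inhibitor holds down, induces AP-1 and the Sprouty and Spred feedback inhibitors.

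The 200 bp about the midpoint is printed for members named by fixed rules, read from GRCm38 on the plus strand, as the DNA that the calls below refer to. Capitals mark any match, on either strand, to the letters searched. For the factors of naive pluripotency these were CATTGT for SOX proteins such as SOX2, ATGCNAAT for the octamer that POU factors such as OCT4 bind, CAAGGTCA for ESRRB and GGGNGTGG for Krüppel-like factors (KLF). A SOX-POU composite, in which a SOX site and an octamer adjoin, was sought as well and overlaps both single motifs. AGATAA stood for GATA factors, the family of the induced protein. For the signalling pathways of the medium, the letters were CTTTGAT for TCF/LEF, which act with β-catenin, and TTCCNGGAA for STAT3, the effector of LIF. TGANTCA stood for AP-1, which growth factors in serum induce. GGAATG was taken for TEAD, the DNA-binding partner of YAP, and CCGGAAGT for ETS factors. A match describes the letters and is no evidence of binding. The first 3 are the members with the highest scores at 0 h that no library called again. The region in an intron of Dclk3, a protein kinase gene, held KLF and TEAD matches that overlap by 1 base and an AP-1 match. The region in an intron of Ctnna3, which encodes an alpha-catenin, held none. The region nearest to Tcp10c held 1 TEAD match.
Dclk3, chr9:111486882-111487081: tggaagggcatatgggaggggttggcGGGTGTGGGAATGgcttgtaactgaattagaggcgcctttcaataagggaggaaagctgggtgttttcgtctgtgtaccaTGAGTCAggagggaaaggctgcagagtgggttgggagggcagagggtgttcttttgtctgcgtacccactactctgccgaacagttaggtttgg
Ctnna3, chr10:64736585-64736784: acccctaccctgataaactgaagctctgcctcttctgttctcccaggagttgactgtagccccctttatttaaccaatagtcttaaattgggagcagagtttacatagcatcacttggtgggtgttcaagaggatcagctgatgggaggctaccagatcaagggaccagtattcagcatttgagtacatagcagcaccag
Tcp10c, chr17:13380214-13380413: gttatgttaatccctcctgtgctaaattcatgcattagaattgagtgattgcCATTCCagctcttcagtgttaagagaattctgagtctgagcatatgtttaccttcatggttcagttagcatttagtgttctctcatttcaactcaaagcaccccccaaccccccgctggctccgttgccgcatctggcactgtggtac

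The next is a member with a high score at 16 h, named for being called again in both 16 h libraries. It lies in an intron of Slc38a4, an amino acid transporter gene, and its window held none of the letters.
Slc38a4, chr15:97028203-97028402: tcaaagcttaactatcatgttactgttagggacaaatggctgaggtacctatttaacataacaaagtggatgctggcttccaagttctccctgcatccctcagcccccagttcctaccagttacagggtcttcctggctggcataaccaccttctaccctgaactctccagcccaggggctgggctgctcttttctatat

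The last 6 are members assigned to naive pluripotency genes, 1 for each gene. Pou5f1 encodes OCT4, and its window held 3 SOX matches. Tfcp2l1, a LIF-responsive factor, had a full octamer. The window near Zfp42, the gene for the naive marker REX1, held an AP-1 and a GATA match and lay wholly in sequence soft-masked as repeat. The windows of Klf2, a Krüppel-like factor, and Prdm14, a repressor of lineage genes, held no match, and that of Tbx3, a T-box factor, held 1 KLF match.
Pou5f1, chr17:35490535-35490734: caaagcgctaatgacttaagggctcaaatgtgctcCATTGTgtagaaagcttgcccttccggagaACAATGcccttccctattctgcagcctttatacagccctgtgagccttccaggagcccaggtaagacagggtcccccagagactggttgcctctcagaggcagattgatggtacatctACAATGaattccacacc
Klf2, chr8:72334371-72334570: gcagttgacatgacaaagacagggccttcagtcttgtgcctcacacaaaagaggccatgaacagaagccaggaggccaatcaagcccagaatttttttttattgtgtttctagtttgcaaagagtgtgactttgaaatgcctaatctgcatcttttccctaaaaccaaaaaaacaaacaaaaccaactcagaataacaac
Tbx3, chr5:119681073-119681272: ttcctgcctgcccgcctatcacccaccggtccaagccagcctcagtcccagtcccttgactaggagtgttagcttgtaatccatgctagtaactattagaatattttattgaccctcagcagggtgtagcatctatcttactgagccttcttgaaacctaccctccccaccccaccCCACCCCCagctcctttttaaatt
Tfcp2l1, chr1:118625483-118625682: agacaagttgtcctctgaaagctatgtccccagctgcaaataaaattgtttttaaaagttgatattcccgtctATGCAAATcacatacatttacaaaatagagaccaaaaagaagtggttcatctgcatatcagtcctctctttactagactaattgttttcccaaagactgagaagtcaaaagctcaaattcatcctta
Prdm14, chr1:13094782-13094981: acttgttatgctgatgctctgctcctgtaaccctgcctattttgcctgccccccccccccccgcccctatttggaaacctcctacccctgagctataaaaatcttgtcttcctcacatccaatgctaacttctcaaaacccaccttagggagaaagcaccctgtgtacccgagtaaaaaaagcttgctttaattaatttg
Zfp42, chr8:43353734-43353933: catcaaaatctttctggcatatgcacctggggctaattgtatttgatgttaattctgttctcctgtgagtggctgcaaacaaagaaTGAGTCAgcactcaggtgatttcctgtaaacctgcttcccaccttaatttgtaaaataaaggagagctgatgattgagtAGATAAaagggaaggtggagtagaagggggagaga

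Members left the lists in steps. At 2 h replicate 1 called 78.2% of them and replicate 2 called 84.3%. At 4 h the libraries called 40.5% and 43.4%, and at 8 h 2.86% and 2.71%. All of these values are bounded by the rule, which asks for a call in at least 1 library at 2 h and fixes 0 h and 48 h. At 2 h, 3498 members (62.5%) were called in both libraries and 2101 (37.5%) in 1. Members lost first at 4 h were more often held by a single 2 h library: 1426 of 2577 (55.3%) were, against 675 of 3022 (22.3%) of those lost first at 8 h. Of the latter, 1675 (55.4%) were called in both 4 h libraries and 1347 (44.6%) in 1.

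The most frequent course, followed by 1083 members (19.3%), was both libraries at 0 h, 1 at 2 h and none from 4 h on. Both libraries at 0, 2 and 4 h and none from 8 h on was seen in 1044 members (18.6%). Both libraries at 0 and 2 h and none from 4 h on was seen in 937 members (16.7%). These 3 courses differ in the time of the last call and in whether 1 library or both made it at 2 h.

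**Figure D1:**
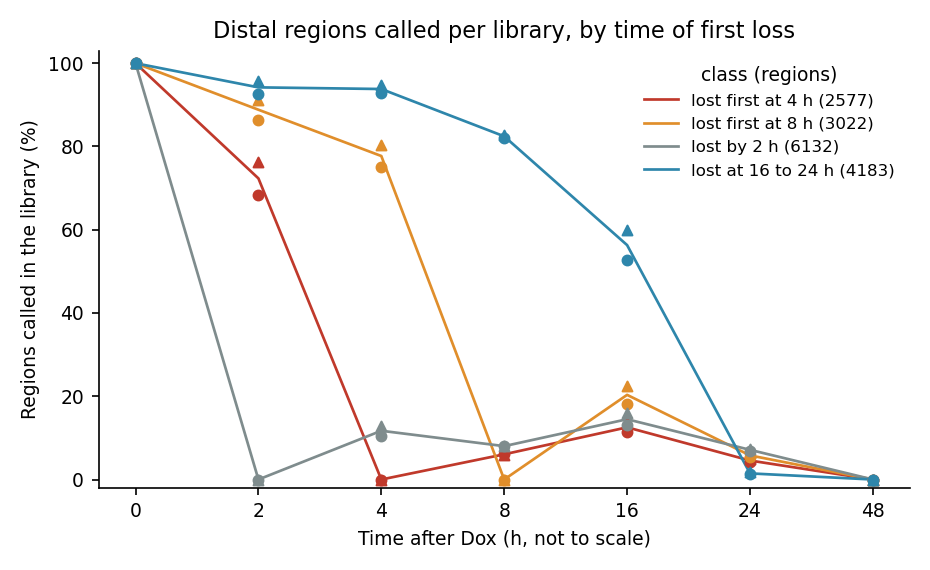
Share of regions called (y axis, %) in each library (circles, replicate 1; triangles, replicate 2) against time after Dox (x axis, h, evenly spaced), with lines through the mean of the 2 libraries. Regions lost first at 4 h and at 8 h, which make up the members, are shown with distal regions lost by 2 h and at 16 to 24 h; values of 0 and 100% at the times that define a class are fixed by the rule, and members were called in 15.1% and 18.4% at 16 h.

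The rule does not use the calls of 16 h and 24 h, where members could be called again. Its lack of calls at 48 h does keep out regions still open late, which bears on the share at 24 h. After their first empty time point, 4184 members (74.7%) were called in no later library, and 1415 (25.3%) were called at least once. The rule fixes 48 h at no call, and no like share over all distal 0 h regions was computed. These counts therefore only describe the members. At 16 h replicate 1 called 15.1% of members and replicate 2 called 18.4%. At 24 h the libraries called 4.86% and 5.59%, so both 16 h values lay above both 24 h values. The difference between 16.7% ± 2.31 and 5.22% ± 0.518 (SD, n = 2 each) was 11.5 percentage points, with a two-sided exact permutation p of 0.333, the smallest that 2 libraries against 2 can give. Calls were also fewer at 24 h elsewhere. All distal regions called in both 0 h libraries were called in 61.3% ± 2.01 at 16 h and 49.6% ± 0.989 (SD, n = 2 each) at 24 h. That drop was of like size in percentage points, but from a higher level, so it was smaller in proportion. Regions lost by 2 h, also called in neither 48 h library, went from 14.5% ± 2.05 to 7.13% ± 0.415 (SD, n = 2 each). The autosomal lists held 60536 and 63667 peaks at 16 h and 55825 and 57040 at 24 h. With the 50000 highest peaks of each list, the difference in members was 9.06 percentage points.

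Both 16 h libraries called 626 members (11.2%), a share that depends on asking for both, since the list of replicate 2 taken by itself, without 16 h replicate 1, held 18.4%. The like share over all distal regions called in both 0 h and neither 8 h library was 10.8%, and among the 5360 members called in neither 8 h library it was 10.1%, so the return at 16 h was near the background and is no result about the members. Regions lost by 2 h and called in neither 8 h library, which had a lower rank at 0 h, were called in both 16 h libraries in 5.81% of 5425 cases. Both 24 h libraries called 166 members (2.96%), and 2.37% of the 5360, against a background of 5.58%. Both backgrounds include regions still called at 48 h, which the rule keeps out of the members. Of the 626, 115 were called in both 24 h libraries and 389 in neither. Members lost first at 8 h were called in both 16 h libraries in 13.6% of cases, against 8.30% of those lost first at 4 h.

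Because the members were chosen on these calls, the same rule was also applied to 1 replicate of every time point and read in the other, which took no part in the choice. Regions chosen on replicate 1 numbered 6386, and replicate 2 called 88.9% of them at 0 h. Its share was 80.3% at 2 h and 56.8% at 4 h, and 21.4% remained at 8 h. Regions chosen on replicate 2 numbered 7017, and replicate 1 called 85.3%, 72.9%, 50.9% and 21.1% of them in the same order. The held-out share at 0 and 2 h was 81.8% ± 6.93 and at 4 and 8 h 37.5% ± 18.9 (SD, n = 4 libraries each). The lowest of the first 4 values, 72.9%, lay above the highest of the second 4, 56.8%. The difference of 44.3 percentage points had a two-sided exact permutation p of 0.0286, the smallest this design can give. That test exchanged libraries freely between the 2 sets of regions. With labels exchanged only within a set, as a replicate block, the exact permutation p was 0.0556. This is the smallest that block allows and no longer below 0.05. The comparison shows that calls recurred between replicates, and wherever they do, the rule itself brings a fall from 0 and 2 h to 4 and 8 h. All distal regions called in both 0 h libraries also fell, from 72.2% at 2 h to 68.9% at 4 h and 59.8% at 8 h.

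The held-out libraries kept the order of the 2 times of loss. Regions chosen as lost first at 4 h were called in 65.2% ± 6.41 of cases at 2 h. The share was 31.8% ± 4.84 at 4 h and then 14.6% ± 0.636 (SD, n = 2 throughout). Those chosen as lost first at 8 h were called in 88.1% ± 4.36, 76.2% ± 4.29 and 28.1% (both libraries) at these times. At 4 h all values of the first class lay below all of the second, with 35.3% as the highest of the first and 73.1% as the lowest of the second. Of both classes together, the held-out 16 h library called 24.3% ± 3.03, that of 24 h called 9.85% ± 0.909 and that of 48 h called 3.68% ± 0.308 (SD, n = 2).

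**Figure D2:**
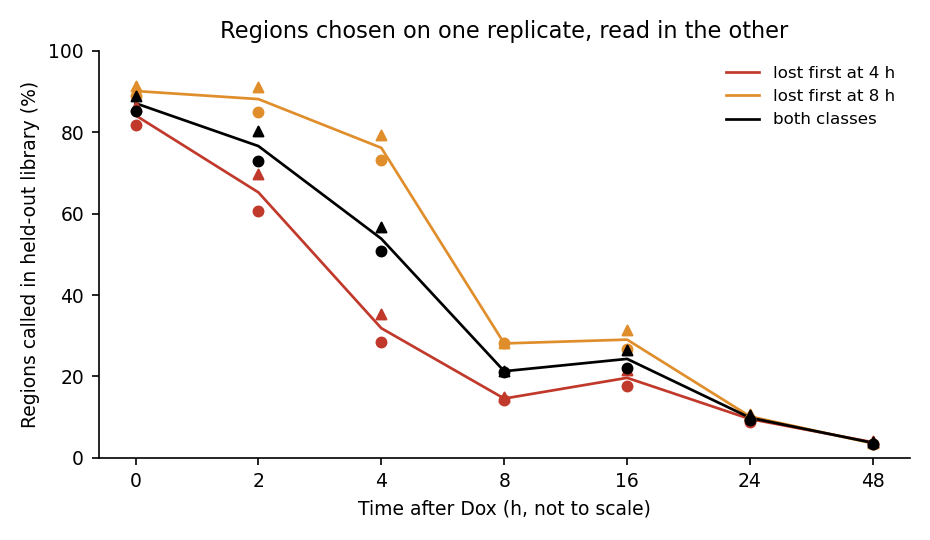
Share of regions (y axis, %) called in libraries whose calls were not used to choose them, against time after Dox (x axis, h, evenly spaced). Regions were chosen on replicate 1 and read in replicate 2 (triangles) or the reverse (circles), lines join means, and for both classes together the values ran from 85.3% and 88.9% at 0 h to 3.46% and 3.90% at 48 h.

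The score in a list ranks its peaks, and a region's percentile is the rank of its best peak among all autosomal peaks of that library. Members were of middling rank at 0 h, with a median percentile of 54.3 ± 0.842 (SD, n = 2 libraries), beside 54.1 ± 0.919 over all distal regions called in both 0 h libraries. Rank at 0 h ordered the classes of loss: it was 32.7 ± 0.288 in regions lost by 2 h, 47.6 ± 0.811 in members lost first at 4 h, 60.7 ± 0.186 in members lost first at 8 h, 62.6 ± 0.924 in regions lost at 16 to 24 h and 69.1 ± 0.889 in the 8803 regions open in all 14 libraries. Members lost first at 8 h and regions lost at 16 to 24 h thus began close together. In 169 of all 5599 members (3.02%) the lower of the 2 percentiles at 0 h was over 90, against 6.78% of all distal 0 h regions. In 451 members (8.06%) it was under 10, against 8.64%.

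Members took a similar share of weak and of strong regions. When distal 0 h regions were ordered by the lower of their percentiles at 0 h and divided into 5 classes of equal size, members made up 15.2% of the weakest class and then 16.99%, 18.3%, 19.6% and 13.1%. Regions lost by 2 h went from 39.0% of the weakest class to 1.78% of the strongest. Those lost after 8 h went the other way, from 13.5% to 31.5%. Within the strongest class, loss at 8 h (9.91%) was more frequent than loss at 4 h (3.19%), and in the weakest class the order was reversed (6.28% and 8.88%).

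The rank of members was already lower at 2 h, before their first empty time point. Among the 3498 members that all 4 libraries of 0 and 2 h called, the median change from 0 h to 2 h was -17.9 percentile points in replicate 1 and -17.1 in replicate 2. The percentile was lower at 2 h in both replicate numbers for 2280 of them (65.2%) and higher in both for 584 (16.7%). In regions lost at 16 to 24 h, the median changes were -2.19 and -2.001, and 44.3% were lower in both. In regions open in all 14 libraries, they were -0.405 and 0.0637. Members lost first at 4 h changed by -24.1 and -23.0 and those lost first at 8 h by -15.1 and -13.9, so the replicates differed by far less than the classes. These classes were defined by later calls of the same regions, so the values are a description and were not tested.

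For members that all 6 libraries of 0, 2 and 4 h called, the median percentile was 68.2 ± 0.286, 56.4 ± 1.68 and 33.7 ± 1.54 at the 3 times (SD, n = 2 libraries; 1441 members). In 841 of these (58.4%) the mean percentile was lower at each step. Regions lost at 16 to 24 h that were called in the same 6 libraries began at a like rank, 67.5 ± 0.944, and were at 68.5 ± 1.12 and 59.99 ± 1.25. Rank within a list can move without a change in the region itself when other peaks gain or lose score.

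**Figure D3:**
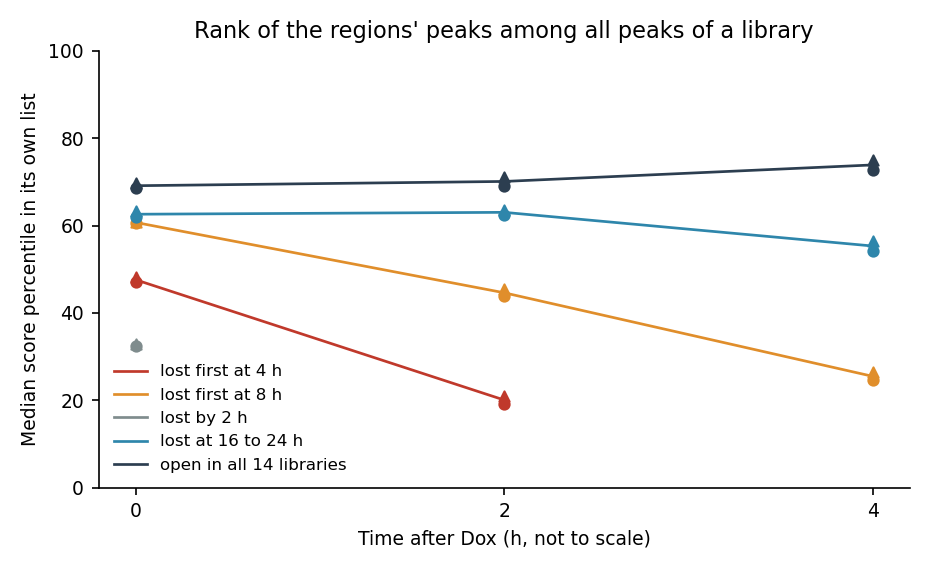
Median score percentile (y axis, 0 to 100, rank among all autosomal peaks of the same library) of called regions at 0, 2 and 4 h (x axis, evenly spaced), by time of loss. Points are libraries (circles, replicate 1; triangles, replicate 2) and lines join means; members lost first at 4 h went from 47.6 to 20.1 and those lost first at 8 h from 60.7 to 44.6 and 25.5, while regions open in all 14 libraries were at 69.1, 70.1 and 73.9.

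Members lay far from promoters. Their median distance to a TSS was 33.6 kb, against 23.3 kb over distal 0 h regions and 17.4 kb over regions open in all 14 libraries, and 23.3% lay over 100 kb away against 15.8% and 8.68%. Other lost classes shared part of this. The median was 27.9 kb in regions lost by 2 h, 29.3 kb in those lost at 16 to 24 h and 22.3 kb in those lost only by 48 h. In these classes 21.0%, 20.2% and 14.3% lay over 100 kb away. By midpoint, 2648 members (47.3%) were in introns, 238 (4.25%) in exons and 2713 (48.5%) between protein-coding genes. Their median width was 602 bp. Few members sat together: 466 (8.32%) lay within 10 kb of another, against 11.02% of the 6132 regions lost by 2 h and 6.50% of the 4183 lost at 16 to 24 h for their own classes. In all, 2197 (39.2%) had any other distal 0 h region within 10 kb. Of these nearest neighbours, 17.4% were members, 19.6% were lost by 2 h, 25.8% after 8 h, and 37.2% were still called in at least 1 library at 48 h. In the same order, neighbours of regions lost by 2 h had shares of 16.4%, 20.8%, 23.5% and 39.3%. For regions lost at 16 to 24 h the shares were 18.3%, 18.1%, 24.1% and 39.5%. Over all distal 0 h regions, 16.6% were members and 42.8% were called in at least 1 library at 48 h, so the split was near the background.

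By nearest TSS within 50 kb, 3384 members (60.4%) were assigned to 2773 genes, of which 2283 had 1 member, 398 had 2 and 92 had 3 or more. The promoter of 1501 of these genes (54.1%) was called in all 14 libraries, against 51.5% of the 10221 genes with any distal 0 h region. Of the 1837 genes with a promoter region called in both 0 h libraries, 75 (4.08%) had no promoter call at 48 h, against 4.12% of the 6475 such genes with any distal 0 h region. A distal region called in neither 0 h and both 48 h libraries was assigned to 53.4% of the genes with members and to 45.3% of the 10221, though genes with more regions of any kind are more often in both counts.

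Naive pluripotency genes held 16 members, assigned to 9 of the 18 genes of that list that are autosomal. This was 0.473% of assigned members, beside 0.394% of assigned distal 0 h regions, and 17.2% of the 93 distal 0 h regions of the list were members. Of the 16, 11 were lost first at 4 h, beside 1594 of all 3384 assigned members. Esrrb, Tbx3 and Tet2 had 3 members each, Fgf4 had 2, and Pou5f1, Klf2, Tfcp2l1, Prdm14 and Zfp42 had 1. Nanog and Sox2, the central factors beside OCT4, had none: of the 4 distal 0 h regions of Nanog 1 was lost by 2 h and 3 were called in all 14 libraries, and both of Sox2 were lost after 8 h. Klf4 and Klf5 also had none.

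The strongest member near Tet2, whose product oxidises methylated cytosine, lay in an intron at chr3:133524398-133525251. Its percentile was 97.8 and 92.7 in the 0 h libraries and 71.9 and 65.8 in those of 2 h, and no library called it from 4 h on. The other members of Tet2 were also lost first at 4 h, and the 2 promoter regions of the gene were called in all 14 libraries. The Pou5f1 member, 15.4 kb from the TSS at chr17:35490382-35490887, was at 89.5 and 87.4 at 0 h and 47.8 and 61.2 at 2 h, and was then not called again. This is the window with 3 SOX matches. The Klf2 member lasted longer: at 15.4 kb from the TSS (chr8:72334236-72334705), it was at 90.8 and 97.1, at 88.6 and 87.9 at 2 h and at 65.0 and 62.0 at 4 h, and was not called from 8 h on.

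Other naive gene members returned at 16 h. The strongest member of Esrrb lay over an exon of the gene at chr12:86504037-86504932, with percentiles of 89.1 and 94.9 at 0 h, 74.98 and 73.7 at 2 h and 72.5 and 41.8 at 4 h. It was called in neither 8 h library, in both of 16 h at 31.4 and 36.6, and in none after that. Esrrb had 18 distal 0 h regions in all, of which 7 were lost after 8 h and 4 were called in all 14 libraries. The octamer-bearing member of Tfcp2l1, 2363 bp from the TSS at chr1:118625345-118625820, was at 63.5 and 66.3 at 0 h and called in 1 library at 2 h, in none at 4 and 8 h, and in both at 16 h at the low percentiles of 13.5 and 22.01. The Zfp42 member was weak at 0 h, at 32.7 and 6.02, and stood higher at 16 h, at 46.6 and 59.0. The Prdm14 member was called in neither 4 h library but in both of 8 h, at 7.27 and 49.0, and so meets the rule without having stayed closed. The strongest members of Tbx3 and of Fgf4, the growth factor gene of epiblast cells, were each called in 1 library at 2 h and in 1 at 16 h.

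Members were also assigned to the genes for both chains of the LIF receptor. Lifr and Il6st, which encode LIFR and its signalling partner gp130, had 3 members each, and 2 and 1 distal 0 h regions lost by 2 h. The LIF and STAT3 target list held 13 members in 7 of its 12 genes. Members were 18.6% of the distal 0 h regions of the list, against 14.3% of all assigned ones. Regions lost by 2 h were 22.9% of the list, against 16.6%, so the higher share was not particular to members. The strongest Il6st member, 1502 bp from a TSS at chr13:112462160-112462976, was at 93.1 and 87.8 at 0 h, 46.8 and 48.9 at 2 h and 45.4 and 18.8 at 4 h. The strongest Lifr member, in an intron at chr15:7116780-7117098, was at 60.1 and 76.5, then 44.7 and 48.1, then 36.2 and 22.4. Neither was called from 8 h on. Sgk1, a kinase gene of this list, had a member called in both libraries at 0, 2 and 4 h, in neither at 8 h and in both at 16 and 24 h. Gbx2, a homeobox gene that LIF induces, had 2 members, the stronger of them within an intron of the neighbouring gene Asb18.

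Among ERK feedback and target genes, 8 members lay with 5 genes, 11.9% of the distal 0 h regions of the list. Spry4 and Spred2, which encode feedback inhibitors, and Myc had 2 each. Of the 8, 6 were lost first at 4 h, beside 1594 of all 3384 assigned members. The strongest Myc member (chr15:62012530-62013116) was at 77.3 and 74.8 at 0 h and at 22.9 in the only 2 h library that called it. The strongest Spred2 member, in an intron at chr11:19985336-19985761, was at 86.8 and 78.7 at 0 h and 41.2 and 39.0 at 2 h, and neither was called later. Wnt target genes had 4 members, 11.1% of the list's 36 distal 0 h regions, against 14.3% of all assigned ones. Of the list's regions 22.2% were lost by 2 h, against 16.6% of all assigned ones.

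Formative and primed epiblast genes had 6 members in 5 genes, 15.8% of the 38 distal 0 h regions of the list. Foxd3, a forkhead factor of pluripotent cells, had 2 of them, and the stronger (chr4:99635973-99636579) was at 95.5 and 87.7 at 0 h, 77.4 and 88.4 at 2 h and 41.2 and 36.2 at 4 h and was never called after that. DNA methylation enzymes had 4 members (16.7% of 24 distal 0 h regions), of which the 3 of Tet2 also count above. Nodal pathway genes had 2 (8.33% of 24), PrE transcription factors and receptors 2 (7.69% of 26) and trophectoderm factors 4 (14.3% of 28). Over all assigned distal 0 h regions the share was 14.3%. The study's own lists, chosen by it from other data, showed a small difference: members were 15.1% of the 696 distal 0 h regions of Epi genes and 12.6% of the 922 of PrE genes, beside 14.3% of all 23616 assigned. Epi genes held 105 members (3.10% of those assigned, against 2.95% of distal 0 h regions) and PrE genes 116 (3.43%, against 3.90%). Over the 11 lists, the share of distal 0 h regions that were members ran from 7.69% (PrE transcription factors and receptors) to 18.6% (LIF and STAT3 targets), in lists of 24 to 93 such regions apart from the study's own.

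**Figure D4:**
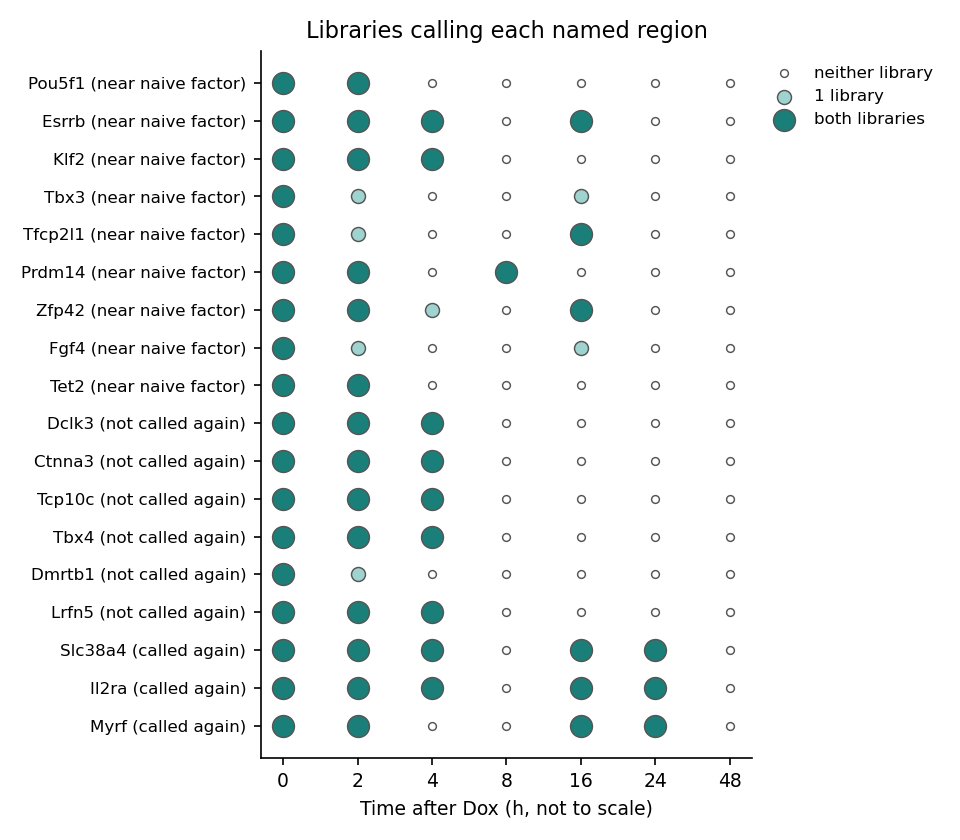
Number of libraries that called each named member (large filled, both; small pale, 1; open, neither) at each time after Dox (x axis, h, evenly spaced). Rows are the strongest member of each naive gene, the 6 strongest members never called again and 3 of the strongest at 16 h among those called again, which were also called in both 24 h libraries.

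The genes with most members were large genes of other kinds. Auts2, tied to neural development, and Tenm4, a teneurin, had 6 each. Tspan5, a tetraspanin, Macf1, which links microtubules and actin, Cdk6, a kinase of the cell cycle, and Lmtk2, a membrane-bound kinase, had 5 each. Tln2, a talin, Rbfox2, a splicing regulator, Nhsl1 and Cobl, an actin nucleator, had 4 each. In Lmtk2 members made up 5 of 7 distal 0 h regions, in Tln2 4 of 6 and in Cdk6 5 of 9, while in Rbfox2 they were 4 of 22. Over all assigned distal 0 h regions the share was 14.3%. These genes were picked for their number of members, so high shares follow from the choice. The strongest Auts2 member (chr5:131490718-131491554) was at 96.7 and 95.6 at 0 h and called in 1 library at 2 h, at 32.1. The strongest Tln2 member (chr9:67346988-67347810) kept its rank for longer, at 94.0 and 93.5, then 88.4 and 82.7, then 52.2 and 69.3 at 4 h. None of the members named for Auts2, Tspan5, Macf1, Cdk6, Lmtk2, Tln2 and Rbfox2 was called after its first empty time point, whereas that of Tenm4 was called in 1 library at 16 h and those of Nhsl1 and Cobl in both.

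The strongest members that were never called again began among the highest peaks of the 0 h lists. The Dclk3 region (chr9:111486452-111487511) was at 99.9 in both 0 h libraries, 85.0 and 89.1 at 2 h and 34.8 and 41.1 at 4 h. The Ctnna3 region (chr10:64736313-64737057) was at 99.1 and 99.6, then 92.2 and 95.7, and still at 85.1 and 85.2 at 4 h, yet no library called it at 8 h. The Lrfn5 region, in an intron of a synaptic adhesion gene (chr12:61609690-61610626), followed the same course, with 84.9 and 87.7 at 4 h. In contrast, the region 49.6 kb from Dmrtb1 (chr4:107733543-107734041) was at 99.1 and 98.6 at 0 h and called in 1 library at 2 h, at 14.9. The Tbx4 region (chr11:85900048-85900924), in an intron of a T-box gene, went through 71.6 and 74.4 at 2 h and 19.3 and 34.9 at 4 h, and the Tcp10c region through 84.5 and 86.9, then 66.7 and 70.5.

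Among members called again in both 16 h libraries, those named for high rank at 16 h stood near their rank at 0 h or above it. The Slc38a4 region (chr15:97027805-97028801) was at 78.8 and 69.1 at 0 h, uncalled at 8 h, and at 80.1 and 84.5 at 16 h. The region in an intron of Il2ra, an interleukin receptor gene, was at 30.6 and 34.1 at 0 h and at 78.4 and 80.9 at 16 h (chr2:11682704-11683261). The region in an intron of Myrf, a membrane-bound transcription factor gene, was at 83.2 and 83.3 and then at 78.7 and 77.9 (chr19:10231796-10232426). These 3 were picked for their rank at 16 h, and over all members called at 16 h the median was 22.5 ± 2.53 (SD, n = 2).

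Members were poorer in G and C than regions that stayed open, as were the other classes of early loss. The median GC content of the central 200 bp was 47.5%, against 50.5% over distal 0 h regions and 53.0% over regions open in all 14 libraries, and at least 1 CpG was found in 80.7%, 87.6% and 93.0%. Median GC content was 49.0% in regions lost by 2 h, 48.5% in those lost at 16 to 24 h and 51.0% in those lost only by 48 h. In 344 members (6.14%) more than 50% of the window was soft-masked repeat, near the 5.82%, 5.62% and 5.86% of these 3 classes, against 4.76% of distal 0 h regions and 2.87% of regions open in all 14 libraries.

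SOX, octamer and ESRRB letters were more frequent in members than over distal 0 h regions, and KLF letters were less so. SOX letters were in 16.8% of members, against 9.36% for permuted letters (TCATGT), 13.6% of distal 0 h regions, 15.1% of all distal regions and 11.5% of regions open in all 14 libraries. Octamer letters were in 9.20% (permuted TAACNATG, 2.70%), against 6.44%, 4.83% and 3.93% of the same sets. ESRRB letters were in 5.14% (permuted AGCATGAC, 0.875%), against 3.52%, 2.68% and 2.15%. KLF letters, which are rich in G, were in 13.2% (permuted GGTNGGGG, 5.43%), against 15.4%, 14.2% and 15.7%. Other lost classes shared part of this. In regions lost by 2 h and at 16 to 24 h, SOX letters were in 14.9% and 14.3%, octamer letters in 7.39% and 9.63%, and ESRRB letters in 4.84% and 3.66%. Octamer letters were thus as frequent in the later class as in members, and ESRRB letters were nearly so in the earlier one. Regions lost only by 48 h held SOX letters in 11.5%, octamer letters in 6.84% and ESRRB letters in 3.82%. KLF letters were in 15.8% of regions lost by 2 h, 14.5% of those lost at 16 to 24 h and 20.3% of those lost only by 48 h. At least 1 of these 4 sets of letters was in 2166 members (38.7%), and 303 (5.41%) held at least 2 kinds, against 34.5% and 4.25% of distal 0 h regions.

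At like GC content the differences were smaller for all 4 sets of letters, and the KLF order against regions open in all 14 libraries turned. With distal 0 h regions divided into 5 classes of GC content and each set weighted to the members' GC, SOX letters were in 16.8% of members and 16.3% of regions open in all 14 libraries. KLF letters were in 13.2% and 12.5%, so their order turned, with members the higher in 4 of 5 GC classes for SOX and for KLF. Octamer letters were in 9.20% and 6.41% and ESRRB letters in 5.14% and 2.84%, with members above the open regions in 5 of 5 GC classes for both. Regions lost at 16 to 24 h, weighted alike, held octamer letters in 10.2%. Distal 0 h regions, weighted alike, held SOX letters in 15.9%, octamer letters in 8.22%, ESRRB letters in 3.76% and KLF letters in 13.3%. Against that set the KLF order did not turn.

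Among the classes of loss, regions lost by 2 h had the lowest share of AP-1 letters and the highest of TCF/LEF letters. AP-1 letters were in 3.03% of regions lost by 2 h, 7.02% of members lost first at 4 h, 9.83% of those lost first at 8 h and 14.3% of regions lost at 16 to 24 h, but in 10.5% of those lost only by 48 h, beside 7.71% of regions open in all 14 libraries and 13.1% of all distal regions. Their permuted letters (ATGNACT) were in 7.49% of regions lost by 2 h, 8.29% of members and 8.37% of regions lost at 16 to 24 h. Members as a whole held AP-1 letters in 8.54%, near their permuted share and near the 7.81% of distal 0 h regions. TCF/LEF letters were in 8.71% of regions lost by 2 h, 6.33% and 5.20% of members lost first at 4 h and at 8 h, 5.31% of those lost at 16 to 24 h and 3.79% of those lost only by 48 h, against 2.66% of regions open in all 14 libraries and 3.96% of all distal regions. Distal 0 h regions held TCF/LEF letters in 4.93%, and the permuted letters (TCTTAGT) were in 2.73% of members. At the members' GC content, AP-1 letters were in 3.19%, 8.54% and 14.6% of regions lost by 2 h, members and regions lost at 16 to 24 h, and TCF/LEF letters in 9.10%, 5.72% and 5.42%. Distal 0 h regions, weighted alike, held AP-1 letters in 8.37% and TCF/LEF letters in 5.68%, both near the values of members.

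Within the members these 2 sets of letters also went with rank at 0 h. In the 1120 members of highest lower percentile, 4.91% held AP-1 and 8.66% held TCF/LEF letters, and in the 1120 of lowest, 12.9% and 3.57%. KLF letters were in 20.4% of the 626 members called in both 16 h libraries and in 11.3% of the 4350 called in neither. This split was made neither at like GC content nor outside the members, and regions lost only by 48 h held KLF letters in 20.3%.

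GATA letters were scarce in members. They were in 5.79%, less than the 9.38% of their permuted form (AAGTAA), and in 4.50% of those lost first at 4 h and 6.88% of those lost first at 8 h. Regions lost by 2 h held them in 4.40%, those lost at 16 to 24 h in 11.5%, those lost only by 48 h in 10.2% and those open in all 14 libraries in 11.2%. Distal 0 h regions held them in 8.31%, and all distal regions, which include regions not called at 0 h, in 19.3%. At the members' GC content the value was 9.98% for distal 0 h regions and 18.3% for regions open in all 14 libraries, and members were below the latter in every GC class. TEAD letters (permuted GATGAG, 9.68%) were in 14.6% of members and 14.5% of distal 0 h regions. STAT3 letters were in 1.38% of members and 1.35% of regions open in all 14 libraries, and ETS letters in 23 members (0.411%) and 0.852% of the open regions. The SOX-POU composite was rare, in 20 members (0.357%), 24 regions lost at 16 to 24 h (0.574%) and 6 open regions (0.0682%), with members above the open regions in 5 of 5 GC classes. Shares of regions are descriptions over regions that share libraries and base composition, and were not tested.

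**Figure D5:**
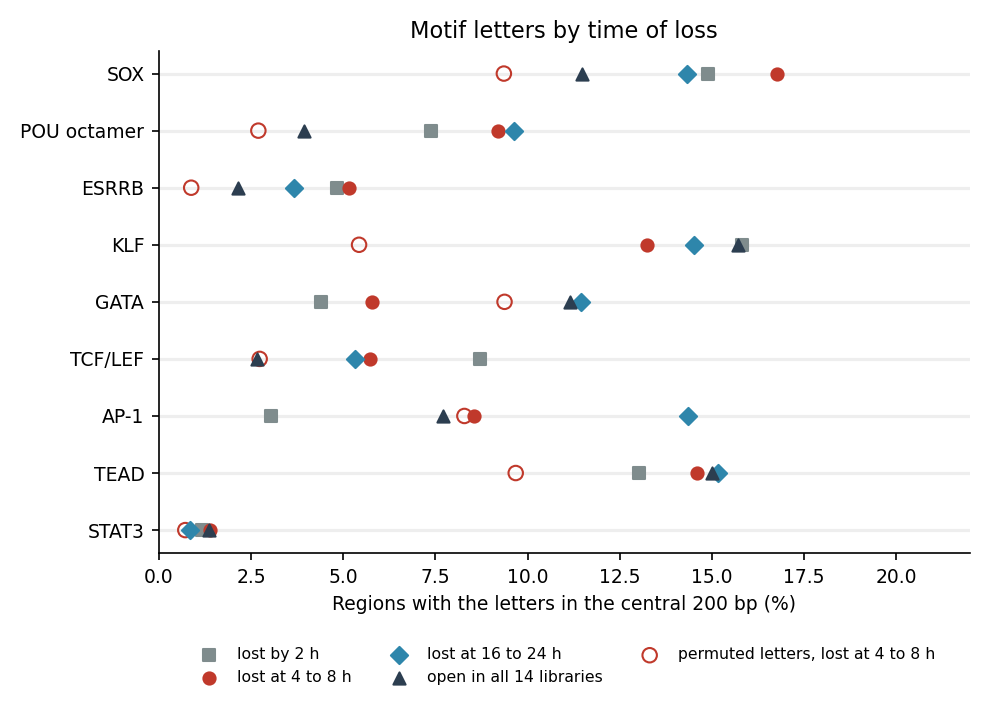
Share of regions (x axis, %) whose central 200 bp held each set of letters (y axis), for members and for regions lost earlier, lost later or open in all 14 libraries; open circles give the permuted letters in members. GATA letters in members (5.79%) lie left of their permuted form (9.38%), and AP-1 letters run from 3.03% in regions lost by 2 h to 14.3% in those lost at 16 to 24 h.

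The rule's limits passed through a smooth range. A further 208 regions met every other part of it but lay within 1 kb of a TSS, 17 of them between 0.9 and 1 kb, and 10 members lay between 1 and 1.1 kb. In 1795 distal regions only 1 of the 2 libraries at 0 h gave a call, and in 260 only 1 at 48 h, with the rest of the rule met.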

How the data were processed

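ATAC-seq peak lists of 14 libraries from KH2 ES cells, 2 at each of 7 time points, were analysed. The authors made 1 list per library with the ENCODE ATAC-seq pipeline, and by the deposited file names kept peaks reproducible between pseudoreplicates (irreproducible discovery rate 0.05) outside blacklisted DNA. The fourth column is an unnamed score of the authors, used here only to rank peaks within a list. Per the labels the build was mm10 (GRCm38), and 0 of 821472 autosomal peaks ended past a chromosome. Depth is not in the lists, and the read totals that the study gives are not used here, so counting intervals for calls are not given.

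Regions, calls and TSSs (GENCODE vM21, 52092 start positions of protein-coding transcripts of 20698 genes) were handled in Python 3.11.15, NumPy 2.4.6 and pandas 2.3.3, and sequence was read with pysam 0.24.0 from RefSeq's GRCm38.p6. Code was tested on simulated peak lists. Gene lists matched 218 of 221 Epi and 570 of 579 PrE symbols, since sex chromosomes were left out. Shares of members at 16 h and 24 h, and held-out shares, were compared by two-sided exact permutation tests over libraries. The study's test of read counts needs reads and was not used here.

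Named members were, by rule, the strongest at 0 h for each naive gene and for genes of the other lists with at least 2 members, the strongest of the 10 genes with most members, the 6 strongest never called again and the 4 strongest at 16 h among those called again in both 16 h libraries. Windows over an exon were not printed, and 1 region that these rules name is not reported here. The members, lists and rules were chosen with earlier results of these data known. Alternatives covered the cover needed for a call, the 50000 highest peaks, distance to TSSs, merging, motif windows, assignment distance, a replicate block and leaving out each library.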

Additional observations from a re-analysis of the deposited data

How the results depend on the processing

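The number of members lay between 5023 and 6188 under the 4 other settings for cover, peaks, distance and merging, was 5687 with 1 start site per gene (an alternative chosen after seeing the data), and lay between 4376 and 6613 when each library was left out in turn. Leaving out a library moved the share lost first at 4 h to between 39.2% and 62.7%, the highest without 4 h replicate 2, and the share called in both 16 h libraries to between 10.9% and 18.4%, the highest without 16 h replicate 1, where a single library decides the call. With 50% of the region covered, the latter was 12.9%. The median percentile at 0 h was 57.8 with 50% cover, 61.6 with the 50000 highest peaks and 57.4 by peak width, and between 48.7 and 57.7 without 1 library. The held-out difference lay between 43.4 and 49.7 percentage points under the 4 settings (exact permutation p = 0.0286 in each). Same-numbered libraries did not deviate together, with r over regions between -0.0156 and 0.0125 in 21 pairs of time points. With a replicate block the held-out difference was 44.3 and its exact permutation p was 0.0556, the smallest that block allows, and the difference between 16 h and 24 h was 11.5 (exact permutation p = 0.5). Of the shares of letters, 151 of 154 values without a library stayed within the 95% Wilson interval of the reported share and 3, all for AP-1, did not. In the whole region, which is longer, 10 of 11 sets of letters were above it, and round the highest 0 h peak the GATA share was 5.07%. The held-out comparison was not repeated without a library, since each choice of regions rests on 1 library per time point. Peak lists limit these results: whether a region without a call is closed or lies below the threshold was not tested.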
